A study of Mus musculus with 6 samples.

Results

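The collagen genes of mouse kidney were read from a bulk RNA-seq table of 6 kidneys. A gene was taken as a member where it is protein coding, its symbol is Col, a number, the letter a and a number, and at least 10 reads were counted in 3 or more kidneys. This gave 35 genes of the 44 with such a symbol in the table and of 32285 gene identifiers in all. The members fall into 9 fibrillar chains, 6 type IV basement membrane chains, 6 type VI chains, 5 FACIT collagens (chains that sit on the surface of fibrils or link them), 2 multiplexins (types XV and XVIII), 3 transmembrane collagens and 4 others that form networks or anchoring fibrils.

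The study set kidneys with a high load of a TrnE mutation against kidneys with a low load, all from female mice aged 100 weeks. TrnE encodes the mitochondrial transfer RNA for glutamate. The load is the share of mitochondrial DNA copies that are mutant. The 3 control mice had loads of 10%, 5% and 15% (controls 1 to 3) and the 3 high-load mice had 75%, 75% and 80% (high-load 1 to 3). The controls therefore carried the mutation too. No source used here names the strain. Each kidney gave 17449270 to 18865997 counted reads, and the collagens took 0.179% to 0.226% of them in the controls and 0.238% to 0.316% at high load.

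Collagens are secreted proteins in which alpha chains wind around each other into a helix, and the chains that pair are encoded by separate genes. In the kidney, type IV collagen is the sheet-forming collagen of basement membranes. The alpha1 and alpha2 chains are widespread, and the alpha3, alpha4 and alpha5 chains form the network of the mature glomerular basement membrane, whose loss in Alport syndrome lets the filter fail. Types I and III are the fibrils of the interstitium and are the main collagens that accumulate in renal fibrosis. The measured RNA comes from whole tissue, so fewer cells of a type and less RNA per cell cannot be told apart.

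Most collagens stood higher in the high-load kidneys, but no single one passed the test. With edgeR's quasi-likelihood test and Benjamini-Hochberg adjustment over 15955 tested genes, 0 of 35 collagens had an adjusted p under 0.05 in either direction, beside 0.0188% of all tested genes that passed as higher and 0% as lower. At an adjusted p under 0.1, 3 collagens were higher and 0 lower, where the shares over all genes were 2.59% and 0.608%. At an unadjusted p under 0.05, 11 collagens were higher and 1 was lower, that is 31.4% and 2.86% of the members beside 14.0% and 10.2% of all tested genes. The 3 kidneys of one group lay entirely above the 3 of the other for 11 collagens with the high-load group on top and for 3 with it below (all genes 17.1% and 15.8%).

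The size of the difference was modest across the family. The median log2 fold change, high load over control, was 0.48 over the 35 collagens, with 25 above and 10 below equal levels. Over all tested genes it was 0.01, with 50.9% above. By class the median was 0.58 for the fibrillar chains, 0.30 for type IV, 0.70 for type VI, -0.01 for the FACIT collagens, 0.53 for the multiplexins, 0.63 for the network and anchoring group and -0.37 for the transmembrane collagens. Col9a3 and Col6a6 entered the set only through the high-load kidneys, since each control had fewer than 10 reads of them, and so had to stand higher. Without these, 9 of 33 collagens (27.3%) were higher at an unadjusted p under 0.05, 2 at an edgeR adjusted p under 0.1, and 9 had all high-load kidneys above all controls. The median was then 0.44 over the 33, 0.30 for type VI and -0.05 for the FACIT collagens. The type VI median was also 0.29 with a filter of 1 CPM, and the FACIT median ran from -0.27 to 0.35 when single kidneys were left out.

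The number of calls depended on the tool. DESeq2 called 8 collagens higher and 0 lower at an adjusted p under 0.05, against 6.67% and 3.88% of the 16091 genes it adjusted, and limma-voom called 0, with 12 higher and 1 lower at an unadjusted p under 0.05. The 8 were Col12a1, Col6a5, Col6a6, Col1a2, Col3a1, Col18a1, Col11a2 and Col1a1, or 7 without Col6a6. In edgeR, 10 of the 11 higher collagens kept an unadjusted p under 0.05 whichever kidney was left out. Col7a1 did so in 2 of the 6 fits and Col4a4, the lower one, in 3. The 10 include Col9a3 and Col6a6, which had to stand higher by the count rule. Shares of all tested genes are not given for these leave-outs or for the unadjusted limma-voom counts.

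**Figure D1:**
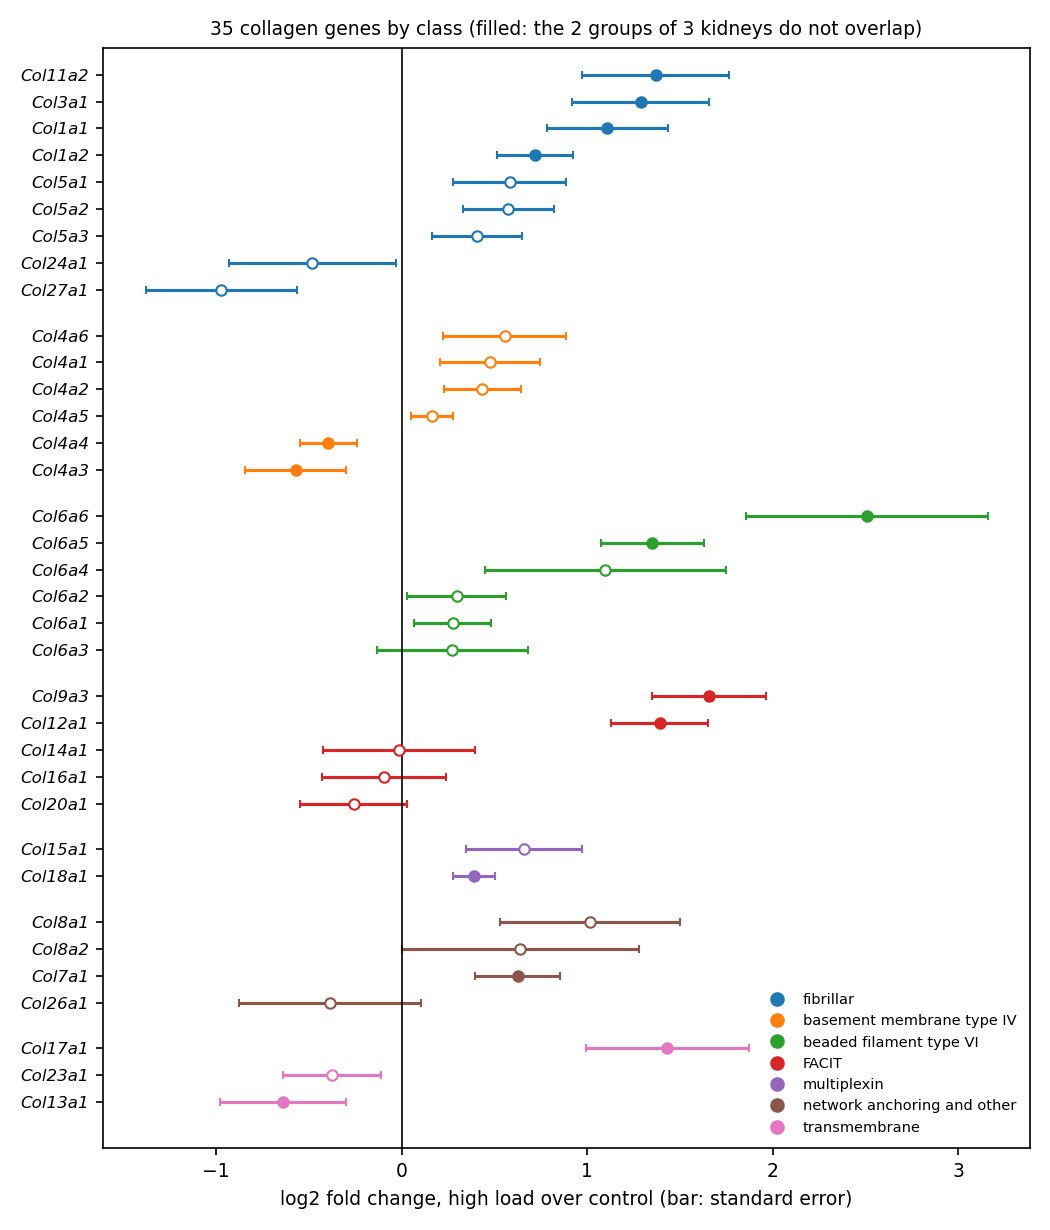
Log2 fold change of high load over control for each of the 35 collagen genes, grouped by class, with bars for the standard error of the edgeR fit. Filled points mark the 14 genes whose 3 control and 3 high-load values do not overlap, 11 to the right of 0 and 3 to the left.

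Many collagen messages share a short sequence in the 3′ untranslated region, the match to the miR-29 seed. The miR-29 family consists of microRNAs known to repress collagen and other matrix messages. They are shown because a match to them was more frequent among the collagens than among the tested genes. The mature mouse sequences from RefSeq (GRCm38.p6) follow, with the seed, bases 2 to 8, in capitals.
mmu-miR-29a-3p: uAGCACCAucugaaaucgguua
mmu-miR-29b-3p: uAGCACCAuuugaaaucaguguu
mmu-miR-29c-3p: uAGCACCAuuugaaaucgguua
The 3 share the seed AGCACCA. Its complement, TGGTGCT on the sense strand, was searched in the 3′ untranslated region of 1 protein-coding transcript per gene (GENCODE M21, the transcript with the longest coding sequence). It occurred in 20 of 35 collagens, or 57.1%, and in 1956 of 14424 tested genes with such a region, or 13.6%. At least 2 matches were present in 22.9% of the collagens and 2.20% of the tested genes. The regions were of like length, with medians of 971 and 943 bases.

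Examples with the match in capitals, on the strand of the gene and with mm10 positions, are as follows.
Col1a1, chr11:94952529-94952546, plus strand: aggaatttcTGGTGCTat
Col3a1, chr1:45348973-45348990, plus strand: atgtctcaaTGGTGCTat
Col4a1, chr8:11199760-11199777, minus strand: gtcacaacaTGGTGCTac
Col4a2, chr8:11448350-11448367, plus strand: aggccacgtTGGTGCTta
Col4a2, chr8:11448521-11448538, plus strand: cacccagctTGGTGCTta
Col5a1, chr2:28037995-28038012, plus strand: atgaacattTGGTGCTga
Col5a2, chr1:45374964-45374981, minus strand: ttttaatgaTGGTGCTaa
Col15a1, chr4:47312491-47312508, plus strand: tccacatatTGGTGCTag
All 6 type IV chains held at least 1 match, including Col4a3 with 4 and Col4a4 with 2. None was found in the transcripts used for Col1a2, Col12a1, Col18a1 or Col11a2. The median log2 fold change was 0.42 for the 20 collagens with a match and 0.72 for the 15 without. Those 15 include Col9a3 and Col6a6, which had to stand higher by the count rule and raise that median. A match is a description of the letters and no measure of repression, and mature microRNAs were not measured in these libraries.

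The fibrillar chains of types I and III stood about 1.6 to 2.4 times as high in the high-load kidneys as in the controls. Levels of one gene are given in counts-per-million (CPM), scaled between libraries by edgeR's TMM factors. Col1a1 (ENSMUSG00000001506, chr11:94936224-94953042), which encodes the alpha1 chain of type I, had 88.5, 37.9 and 70.2 CPM in controls 1 to 3 and 131, 180 and 113 CPM in high-load 1 to 3. The lowest high-load kidney was above the highest control. The log2 fold change was 1.11 (SE 0.32, edgeR adjusted p = 0.130).

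Col1a2 (ENSMUSG00000029661, chr6:4504814-4541544), the alpha2 chain that pairs with it, had 158, 102 and 148 CPM in the controls and 209, 270 and 194 CPM at high load. The groups again did not overlap, with a log2 fold change of 0.72 (SE 0.20, edgeR adjusted p = 0.127). Col3a1 (ENSMUSG00000026043, chr1:45311538-45349706), the single chain of type III, had 90.0, 37.6 and 93.7 CPM in the controls and 141, 233 and 167 CPM at high load. Its log2 fold change was 1.29 (SE 0.37, edgeR adjusted p = 0.128), without overlap. Control 2 was the lowest kidney for all 3 genes, and high-load 2 was the highest. Levels did not follow load within the high-load group, where high-load 3 (80%) was the lowest for Col1a1 and Col1a2. An exon of Col3a1 overlaps a same-strand predicted gene, and the counting rule for such reads was not given in the sources used here.

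Summed per length, in RPKM (CPM divided by kb of exon), types I and III came to 35.4, 17.8 and 32.1 in the controls and 51.1, 72.9 and 49.8 at high load. The groups did not overlap, and the log2 difference was 1.07. The exact two-sided permutation test over kidneys gave p = 0.1, the smallest that 3 against 3 kidneys allow (0.275 after adjustment over 11 sums). Of the markers of fibroblasts and myofibroblasts, 9 of 10 were above equal levels, with a median log2 fold change of 0.47. Acta2, Postn and Mfap5, which mark activated or matrix-making fibroblasts and smooth muscle, had log2 fold changes of 0.92, 0.98 and 1.30 without overlap, named after their values were seen. Pdgfra and Pdgfrb, a large part of the summed level, had -0.58 and 0.22 with overlap. The summed level ran from 183 to 306 CPM in the controls and from 238 to 375 CPM at high load. With both sums in CPM, types I and III per unit of these markers came to 1.32, 0.97 and 1.02 in the controls. At high load the ratio was 1.47, 1.82 and 1.99, a log2 difference of 0.68 without overlap. This ratio was added after the data were seen and rests on the markers in the sum. The part of cell numbers in the result was not tested.

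The balance of the type I chains also differed. The ratio Col1a1/Col1a2, per length, was 1.06, 0.703 and 0.900 in the controls and 1.18, 1.27 and 1.10 at high load. All high-load kidneys were above all controls (log2 difference 0.43, exact permutation p = 0.1, adjusted over 9 ratios 0.3). A ratio within a kidney does not depend on library scaling, and the length used cancels from the difference between groups. The Col3a1/Col1a1 ratio overlapped between groups, at 0.662 to 0.893 in the controls and 0.719 to 0.989 at high load.

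The other fibrillar chains were mixed. Col11a2, a chain of type XI best known from cartilage, had 2.16, 0.79 and 1.42 CPM in the controls and 4.92, 3.31 and 3.12 CPM at high load. Its level was low but the groups did not overlap (log2 fold change 1.37, SE 0.40, edgeR adjusted p = 0.129). Cartilage and skeletal muscle markers were at most 0.11 CPM in sum in the controls and 0.38 CPM at high load. The type V chains Col5a1, Col5a2 and Col5a3, which regulate the width of fibrils, had log2 fold changes of 0.58, 0.58 and 0.41, each with overlap between groups and edgeR adjusted p between 0.213 and 0.337.

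Col27a1 was the fibrillar chain with the lowest fold change. It had 177, 161 and 70.0 CPM in the controls and 41.8, 89.3 and 77.5 CPM at high load. Control 3 lay within the high-load range while the other controls were far above it (log2 fold change -0.97, SE 0.41, edgeR adjusted p = 0.208). Col24a1 was at 0.67 to 1.42 CPM in the controls and 0.43 to 1.11 CPM at high load.

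**Figure D2:**
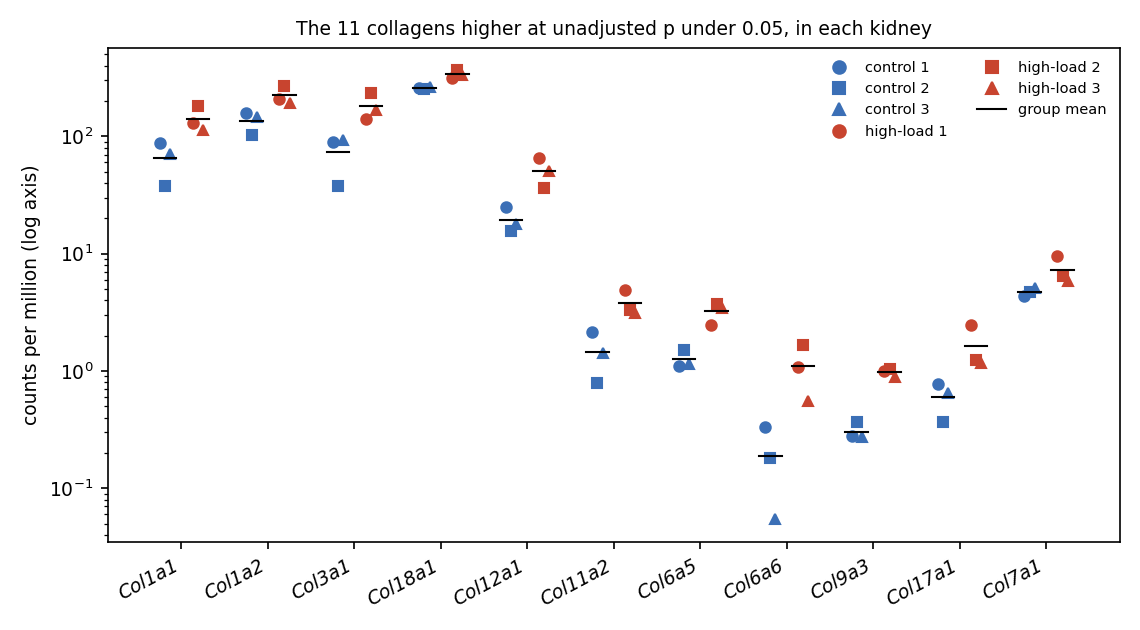
CPM, on a log axis, of the 11 collagens that stood higher at an unadjusted p under 0.05, with 1 symbol per kidney and a bar for each group mean. In each of the 11 genes the 3 high-load kidneys lie above the 3 controls. Col9a3 and Col6a6 had to stand higher by the count rule. Levels run from 0.054 CPM (Col6a6, control 3) to 367 CPM (Col18a1, high-load 2).

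The type IV chains divided by pair. The alpha3 and alpha4 chains, which join alpha5 in the glomerular network, were lower at high load. Their reads came from the whole kidney and were not assigned to the glomerulus. The alpha1 and alpha2 chains of the general network were higher on average, with overlap between groups. These genes lie head to head on opposite strands. The annotated starts of Col4a1 and Col4a2 (chromosome 8) overlap by 22 bases, those of Col4a4 and Col4a3 (chromosome 1) lie 71 bases apart, and those of Col4a6 and Col4a5 (chromosome X) 1308 bases apart.

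Col4a4 (ENSMUSG00000067158, chr1:82448423-82586849) had 245, 284 and 245 CPM in the controls and 158, 214 and 216 CPM at high load. All high-load kidneys were below all controls, with high-load 1 the lowest. The log2 fold change was -0.40 (SE 0.15, unadjusted p = 0.0386, edgeR adjusted p = 0.186). It was the single collagen lower at an unadjusted p under 0.05, and without high-load 1 its log2 fold change was -0.26.

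Col4a3 (ENSMUSG00000079465, chr1:82586921-82722059) had 273, 255 and 313 CPM in the controls and 117, 253 and 196 CPM at high load. The groups did not overlap, although high-load 2 lay close under the lowest control (log2 fold change -0.57, SE 0.27, edgeR adjusted p = 0.250, and -0.32 without high-load 1). An exon of Col4a3 overlaps one of an antisense gene, and the strand setting of the counting was not given in the sources used here. Col4a5 (ENSMUSG00000031274), which joins alpha3 and alpha4 in that network, had 50.6, 54.6 and 42.2 CPM in the controls and 53.2, 53.1 and 59.1 CPM at high load, with overlap (log2 fold change 0.17, SE 0.11, edgeR adjusted p = 0.404).

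Col4a1 (ENSMUSG00000031502, chr8:11198423-11312826) had 307, 234 and 370 CPM in the controls and 282, 498 and 488 CPM at high load. High-load 1 lay within the control range and the other two high-load kidneys above it (log2 fold change 0.48, SE 0.27, edgeR adjusted p = 0.318). Col4a2 (ENSMUSG00000031503, chr8:11312805-11449287) had 193, 170 and 233 CPM in the controls and 203, 326 and 277 CPM at high load, with the same kidney in the control range (log2 fold change 0.44, SE 0.21, edgeR adjusted p = 0.246). Col4a6 (ENSMUSG00000031273), found in some epithelial basement membranes, had 5.82, 5.77 and 4.14 CPM in the controls and 11.5, 5.32 and 6.23 CPM at high load, high in high-load 1 only (log2 fold change 0.56, SE 0.33, edgeR adjusted p = 0.337).

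Within each kidney the balance between both networks, read from Col4a3 and Col4a1, differed between groups by more than the spread within them. The ratio Col4a3/Col4a1, per length, was 0.666, 0.814 and 0.633 in the controls and 0.312, 0.380 and 0.300 at high load. The highest high-load ratio was well under the lowest control ratio. The log2 difference was -1.09, or 0.470-fold, beside a within-group SD of 0.19. It ran from -1.19 to -0.98 when 1 kidney at a time was left out (exact permutation p = 0.1, the smallest possible, and 0.3 adjusted over 9 ratios). Col4a5/Col4a4, a ratio of chains within the glomerular network, differed too. It was 0.326, 0.304 and 0.273 in the controls and 0.531, 0.392 and 0.432 at high load, also without overlap (log2 difference 0.58, exact permutation p = 0.1, adjusted 0.3). These are whole-kidney RNA values, so the ratio does not show the balance of the chains within the glomerulus.

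The other planned type IV ratios, of 1 pair in each network, overlapped between groups. Col4a1/Col4a2 was 1.22 to 1.41 in the controls and 1.23 to 1.56 at high load (log2 difference 0.03, exact permutation p = 0.9), and Col4a3/Col4a4 was 0.956 to 1.36 and 0.790 to 1.26 (log2 difference -0.23, exact permutation p = 0.5). Of 2 ratios added after these were seen, Col4a4/Col4a1 did not overlap (log2 difference -0.86) and Col4a3/Col4a5 did (-0.81).

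Cell type markers moved beside this. The sum of Col4a3 and Col4a4 was 50.5, 52.3 and 54.4 RPKM in the controls and 26.7, 45.6 and 40.0 RPKM at high load (log2 difference -0.52, exact permutation p = 0.1, adjusted over 11 sums 0.275). Podocytes are the cells that make these chains in the glomerulus, and 1 of their 7 markers was above equal levels, with a median log2 fold change of -0.26. The summed podocyte markers were 678, 535 and 591 CPM in the controls and 273, 649 and 658 CPM at high load, so high-load 1 stood apart. With both sums in CPM, Col4a3 and Col4a4 per unit of these markers came to 0.765, 1.01 and 0.944 in the controls. At high load the ratio was 1.01, 0.720 and 0.626, which overlapped (log2 difference -0.22).

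All 7 endothelial markers were below equal levels, with sums of 560 to 730 CPM in the controls and 392 to 675 CPM at high load. The Col4a1 and Col4a2 sum overlapped between groups, at 404 to 603 CPM in the controls and 485 to 824 CPM at high load. Per unit of the endothelial markers it was 0.722 to 0.827 in the controls and 1.22 to 1.71 at high load, without overlap. These chains are widespread, so endothelium is only a part of their source. Both ratios to markers were added after the data were seen. Of 8 markers of distal tubule and collecting duct, 7 were below equal levels, with a median log2 fold change of -0.55. Their sums were 7420 to 10182 CPM in the controls and 5645 to 7274 CPM at high load, without overlap. The part of cell composition in the type IV values was not tested.

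**Figure D3:**
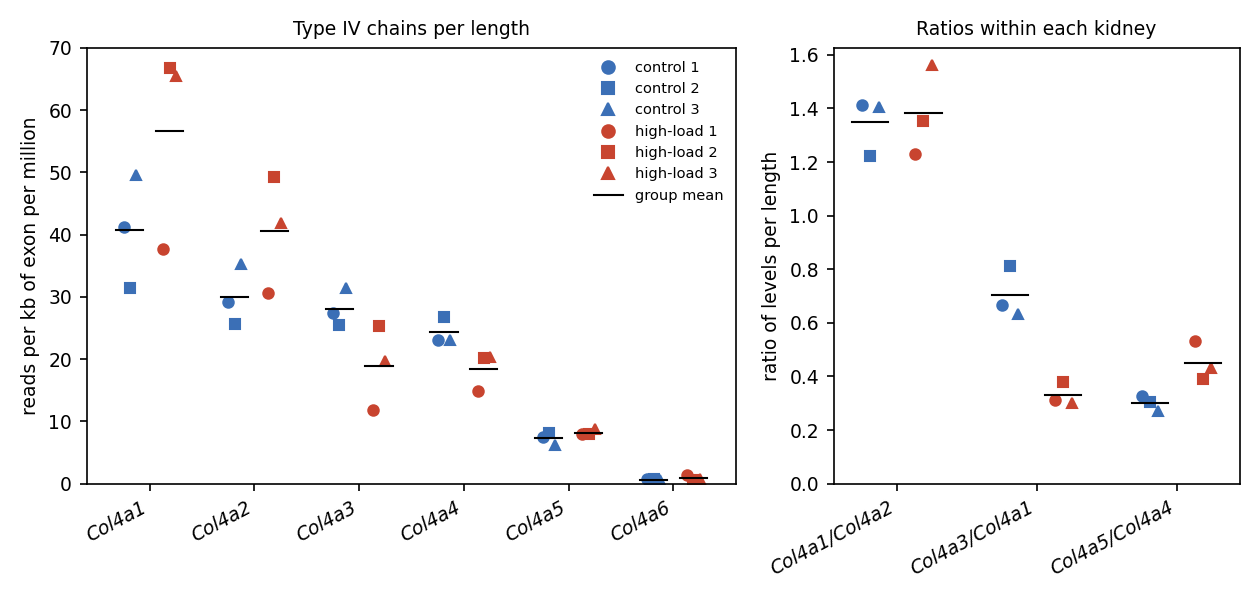
Left, levels per length (RPKM) of the 6 type IV chains in each kidney, and right, ratios of such levels within each kidney, with bars for group means. Col4a3/Col4a1 lies at 0.633 or more in the controls and at 0.380 or less in the high-load kidneys, while Col4a1/Col4a2 overlaps.

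The type VI chains overlapped between groups but for Col6a5 and Col6a6. Type VI collagen forms beaded microfilaments around cells. The chains of the common form, Col6a1, Col6a2 and Col6a3, overlapped between groups. Col6a1 (ENSMUSG00000001119) had 51.9, 48.7 and 51.0 CPM in the controls and 51.3, 83.4 and 49.0 CPM at high load (log2 fold change 0.28, SE 0.21, edgeR adjusted p = 0.441). Col6a2 (ENSMUSG00000020241) had 37.1, 29.7 and 35.0 CPM in the controls and 29.8, 60.5 and 34.6 CPM at high load (0.30, SE 0.27, adjusted p = 0.523 in edgeR).

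Col6a3 (ENSMUSG00000048126) had 36.3, 24.1 and 48.7 CPM in the controls and 25.6, 69.8 and 36.6 CPM at high load (0.27, SE 0.41, edgeR adjusted p = 0.710). High-load 2 alone was high in all 3 genes. Without it their log2 fold changes were -0.01, -0.07 and -0.23. Their ratios overlapped too, with Col6a1/Col6a2 at 2.66 to 3.12 in the controls and 2.62 to 3.27 at high load.

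Col6a5 and Col6a6 are low-abundance chains that can replace alpha3 in the molecule. Col6a5 (ENSMUSG00000091345) had 1.11, 1.52 and 1.14 CPM in the controls and 2.46, 3.75 and 3.45 CPM at high load, without overlap (log2 fold change 1.35, SE 0.28, edgeR adjusted p = 0.0967). Col6a6 (ENSMUSG00000043719) had 6, 3 and 1 reads in the controls and 23, 31 and 10 reads at high load (log2 fold change 2.51, SE 0.65, edgeR adjusted p = 0.115). It met the count rule through the high-load kidneys alone, so its difference is a description, and an exon overlaps one of an antisense gene. Col6a4 (ENSMUSG00000032572) had 11, 1 and 5 reads in the controls and 17, 15 and 8 reads at high load, with overlap (log2 fold change 1.10, SE 0.65, edgeR adjusted p = 0.335).

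Among the FACIT collagens, Col12a1 stood higher without overlap. Col12a1 (ENSMUSG00000032332, chr9:79598991-79718831), a large chain on the surface of type I fibrils in tissues under load or repair, had 25.0, 15.6 and 17.9 CPM in the controls and 65.7, 36.5 and 51.2 CPM at high load. Each high-load kidney was above each control (log2 fold change 1.39, SE 0.26, edgeR adjusted p = 0.0946). Without high-load 1, where it was highest, the log2 fold change was 1.17. Without high-load 2, it was the only collagen with an edgeR adjusted p under 0.05, at 0.0280. That fit called 807 genes in all, so a single call among 35 collagens does not set them apart.

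Col9a3 (ENSMUSG00000027570), a type IX chain best known from cartilage, had 5, 6 and 5 reads in the controls and 21, 19 and 16 reads at high load (log2 fold change 1.66, SE 0.31, edgeR adjusted p = 0.0946). It too met the count rule through the high-load kidneys alone. The other type IX chains, Col9a1 and Col9a2, had 0 reads and at most 2 reads per kidney. An exon of Col9a3 overlaps one of Tcfl5 on the opposite strand. Col14a1, Col16a1 and Col20a1 had log2 fold changes of -0.01, -0.09 and -0.26 with overlap, and the sign of the first pair depended on scaling and on the kidneys kept.

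Of the multiplexins, Col18a1 was the more even. Col18a1 (ENSMUSG00000001435, chr10:77052178-77166548) encodes a basement membrane chain whose end fragment is endostatin. It had 257, 256 and 262 CPM in the controls and 313, 367 and 337 CPM at high load. The controls differed from each other by little, and every high-load kidney was above them (log2 fold change 0.39, SE 0.11, edgeR adjusted p = 0.129). Col15a1, found between basement membrane and fibrils, had 56.3, 34.3 and 62.0 CPM in the controls and 55.5, 113 and 72.8 CPM at high load, with overlap (log2 fold change 0.66, SE 0.31, edgeR adjusted p = 0.251).

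Collagens of anchoring and transmembrane kinds were low. Col17a1 (ENSMUSG00000025064), a transmembrane chain of epithelial hemidesmosomes, had 0.78, 0.36 and 0.65 CPM in the controls and 2.46, 1.25 and 1.17 CPM at high load (log2 fold change 1.43, SE 0.44, edgeR adjusted p = 0.137). Col7a1 (ENSMUSG00000025650), the anchoring fibril chain, had 4.38, 4.68 and 5.12 CPM in the controls and 9.50, 6.51 and 5.85 CPM at high load (log2 fold change 0.62, SE 0.23, edgeR adjusted p = 0.171). Both were highest in high-load 1, and without that kidney their log2 fold changes were 1.00 and 0.39.

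High-load 1 also stood apart in markers of urothelium, the lining of the renal pelvis. Their sum was 52.9, 38.2 and 15.4 CPM in the controls and 260, 4.40 and 3.90 CPM in high-load 1 to 3. In high-load 2 and 3, Col17a1 was at 1.25 and 1.17 CPM, beside at most 0.78 CPM in the controls. Col7a1 was at 6.51 and 5.85 CPM there, beside at most 5.12 CPM in the controls. The part of urothelium in these values was not tested. Col13a1 had 1.5, 1.52 and 1.2 CPM in the controls and 0.94, 1.19 and 0.56 CPM at high load, barely without overlap (log2 fold change -0.64, edgeR adjusted p = 0.291). Col23a1, Col26a1, Col8a1 and Col8a2 overlapped between groups. The type VIII chain Col8a1, of vessel walls and the membranes beneath endothelium, was 5.10 to 21.6 CPM in the controls and 18.8 to 33.2 CPM at high load.

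Under the count rule were Col2a1, Col9a1, Col9a2, Col10a1, Col11a1, Col19a1, Col22a1, Col25a1 and Col28a1, with 0 to 18 reads per kidney. They were not described further.

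The make-up of collagen RNA followed from these levels. Over all 35 genes, the summed level per length was 274, 227 and 287 RPKM in the controls and 261, 397 and 326 RPKM at high load, with overlap (log2 difference 0.30, exact permutation p = 0.3). Col4a1, Col18a1 and Col4a2 had the highest levels per length in both groups, at 40.7 ± 9.09, 36.8 ± 0.424 and 30.0 ± 4.86 RPKM in the controls and 56.6 ± 16.4, 48.3 ± 3.90 and 40.6 ± 9.35 RPKM at high load (SD, n = 3). Col4a1 overlapped with Col18a1 within each group, and Col18a1 was above Col4a2 in all 6 kidneys. In the controls Col4a3 and Col4a4 came next, at 28.1 ± 2.97 and 24.3 ± 2.10 RPKM, and Col1a1 had 9.98 ± 3.90 RPKM. At high load Col1a1 (21.5 ± 5.33), Col4a3 (18.9 ± 6.83), Col4a4 (18.5 ± 3.08), Col3a1 (18.4 ± 4.85) and Col1a2 (18.1 ± 3.21 RPKM) overlapped. These levels use merged exon lengths, which for Col1a2 are 12426 bases against 5348 in its longest transcript. For Col3a1 they are 9816 against 5564 bases. The levels and ranks of both genes, and the shares below, therefore depend on that choice.

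As a share of the summed collagen level, types I and III made up 12.9%, 7.84% and 11.2% in the controls and 19.6%, 18.4% and 15.3% at high load. Col4a3 and Col4a4 made up 18.4%, 23.0% and 18.9% in the controls and 10.2%, 11.5% and 12.3% at high load. Neither share overlapped between groups, and they moved in opposite directions. A share of a fixed total falls where another rises, so these are not independent observations.

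**Figure D4:**
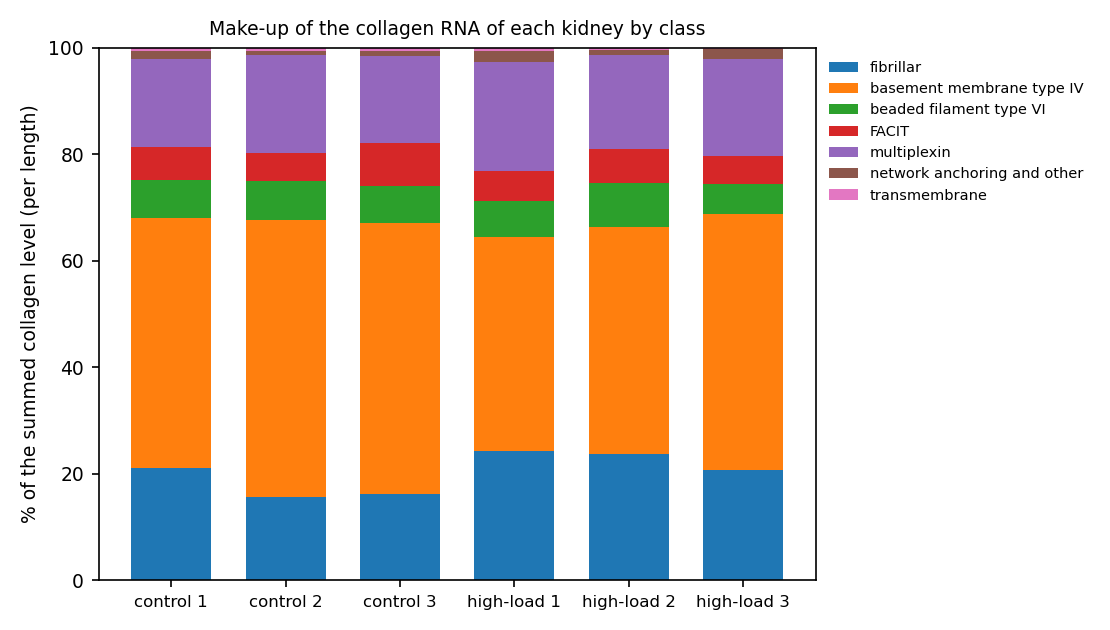
Share of the summed collagen level per length taken by each class, in percent, 1 stacked bar per kidney. The fibrillar share is 15.7% to 21% in the controls and 20.6% to 24.3% in the high-load kidneys, and the type IV share is 47.1% to 52.0% and 40.1% to 48.1%.

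The enzymes, receptors and partners of collagen were read from the same fit, and none had an adjusted p under 0.05 in edgeR. Of 20 tested genes for folding and modification of the chains, 3 were higher and 2 lower at an unadjusted p under 0.05, near the shares of all tested genes (14.0% and 10.2%), and their median log2 fold change was -0.06. Plod3, a lysyl hydroxylase, was 48.2 to 60.5 CPM in the controls and 66.0 to 66.4 CPM at high load. P3h2, a prolyl hydroxylase with a known role in basement membrane collagen, was 106 to 115 CPM in the controls and 62.9 to 89.5 CPM at high load (log2 fold change -0.47, edgeR adjusted p = 0.136). Colgalt1, which adds galactose to hydroxylysine, was 47.5 to 52.0 and 53.8 to 79.3 CPM. None of these 3 overlapped between groups.

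Of 13 genes for procollagen processing and crosslinking, 4 were higher and 1 lower at an unadjusted p under 0.05 (all genes 14.0% and 10.2%). In all, 10 were above and 3 below equal levels, with a median of 0.35. Adamts2, which removes the amino-terminal propeptide of types I and III, was 13.4, 7.05 and 13.6 CPM in the controls and 22.7, 29.5 and 19.2 CPM at high load (log2 fold change 1.07, edgeR adjusted p = 0.119). Lox, the lysyl oxidase that starts crosslinking, was 15.5, 8.45 and 19.8 CPM in the controls and 28.5, 30.0 and 27.6 CPM at high load (0.97, edgeR adjusted p = 0.129). Both were without overlap, and control 2 was the lowest kidney for both, as for Col1a1 and Col3a1. Tll1, a protease of the carboxy-terminal propeptide, was 2.98 to 3.66 CPM in the controls and 0.99 to 1.85 CPM at high load (-1.33, edgeR adjusted p = 0.0992).

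Of 9 collagen receptors, 4 were higher and 0 lower at an unadjusted p under 0.05 (all genes 14.0% and 10.2%), and 8 were above and 1 below equal levels, with a median of 0.28. They include Lair1, an inhibitory receptor of leukocytes, at 5.21 to 8.02 CPM in the controls and 10.9 to 20.7 CPM at high load, Itga11, the integrin alpha chain of fibroblasts that binds type I, at 1.25 to 2.22 and 2.98 to 3.73 CPM, and Itga2, at 1.85 to 2.33 and 2.82 to 7.80 CPM. Of the macrophage markers, 6 of 7 were higher at an unadjusted p under 0.05 (all genes 14.0%), with sums of 244 to 342 CPM in the controls and 432 to 699 CPM at high load. The part of leukocyte number in the Lair1 value was not tested.

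Of 11 fibril-binding proteoglycans and glycoproteins, 4 were higher and 0 lower at an unadjusted p under 0.05 (all genes 14.0% and 10.2%), and 7 were above and 4 below equal levels, with a median of 0.55. Fn1, the fibronectin on which fibrils assemble, was 109, 56.8 and 104 CPM in the controls and 160, 199 and 165 CPM at high load (log2 fold change 0.96, edgeR adjusted p = 0.118). Sparc, a collagen-binding matricellular protein, was 314, 203 and 276 CPM in the controls and 378, 464 and 433 CPM at high load (0.69, edgeR adjusted p = 0.121). Thbs2, a thrombospondin, overlapped, at 13.7 to 26.1 and 25.9 to 36.9 CPM.

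Of 15 basement membrane partners, 3 were higher and 1 lower at an unadjusted p under 0.05 (all genes 14.0% and 10.2%), and 10 were above and 5 below equal levels, with a median log2 fold change of 0.08. The laminin chain Lamc1 was 48.3 to 58.8 CPM in the controls and 67.5 to 73.8 CPM at high load (log2 fold change 0.34, edgeR adjusted p = 0.132). Hspg2, the heparan sulfate proteoglycan perlecan, was 98.1 to 116 and 118 to 146 CPM (0.37, edgeR adjusted p = 0.149). Lama3, the lower one, was 18.0 to 21.8 CPM in the controls and 15.5 to 15.7 CPM at high load (-0.31, edgeR adjusted p = 0.173). It was named after its values were seen. These 3 genes did not overlap between groups.

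**Figure D5:**
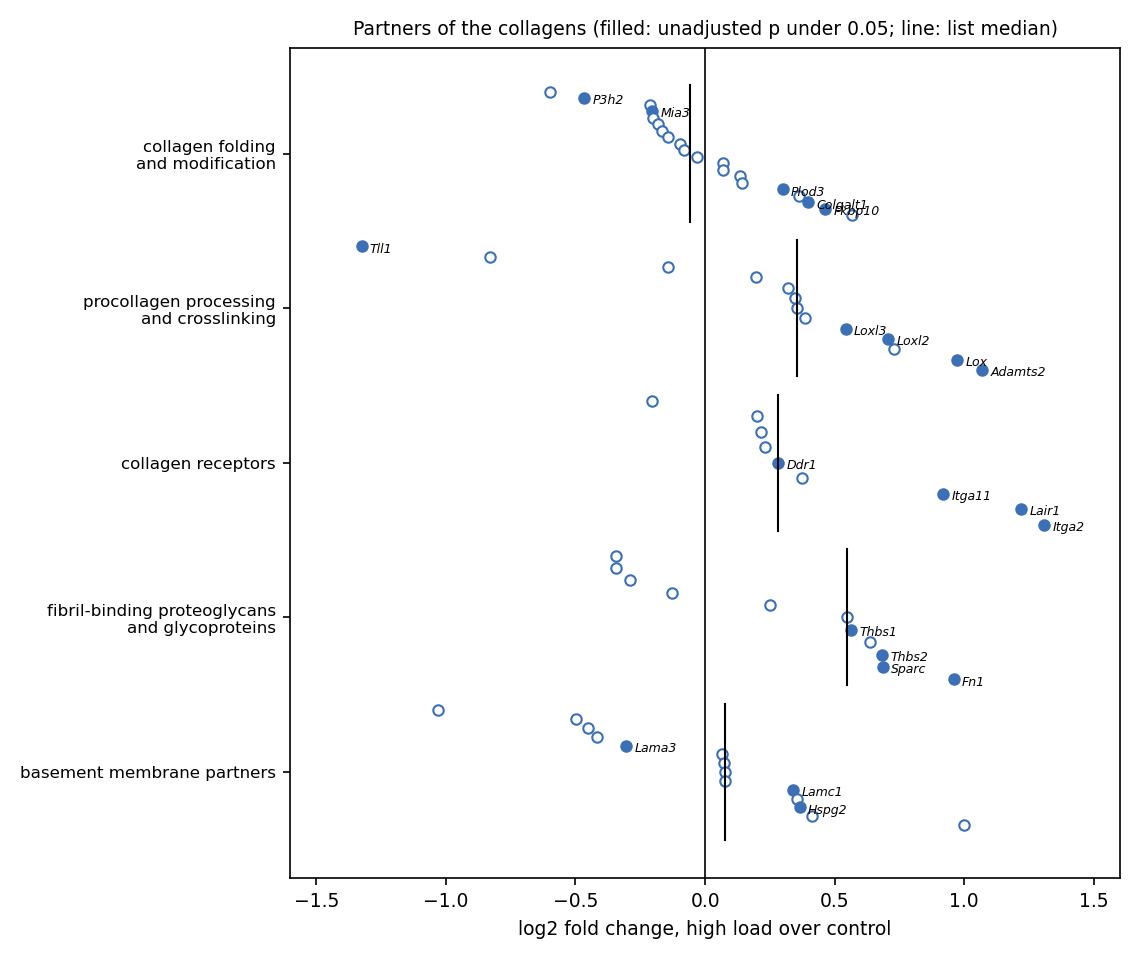
Log2 fold change of the tested genes in the 5 lists of collagen partners, with 1 gene not drawn, with filled points and names for an unadjusted p under 0.05 and a line at each list's median. Fibril-binding genes have the highest median (0.55), and folding and modification genes have a median of -0.06.

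Markers of other cell types also differed across the same kidneys. The summed proximal tubule markers were 12370 to 13987 CPM in the controls and 3602 to 10308 CPM at high load, with all 8 below equal levels, and the lowest value was in high-load 1. Lymphocyte markers were 13.4 to 26.3 CPM in the controls and 169, 44.4 and 21.7 CPM in high-load 1 to 3. Smooth muscle markers overlapped, at 128 to 161 and 143 to 152 CPM. The part of these shifts in the collagen values was not tested. In scale, dividing by library totals in place of TMM moved the median of all genes to 0.13 and the share of higher genes among those at an unadjusted p under 0.05 from 57.8% to 74.2%. It gave 16 collagens higher and 1 lower at that level, beside 18.2% and 6.31% of all tested genes, so the counts above are relative to the TMM scale.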

How the data were processed

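Kidney RNA was extracted with TRIzol and sequenced as paired reads, per the labels' protocols. The authors deposited raw read counts per Ensembl gene for 6 kidneys. Per the submitters' processing notes, the tools were HISAT2 2.2.1, featureCounts 2.0.1, fastp 0.23.2, SAMtools 1.11 and edgeR, with the genome build mm10. Annotation and strand setting were not given in the sources used here, so 11 of the 35 collagens with an exon that overlaps another gene have uncertain counts. Symbols, positions and exon lengths were taken from GENCODE M21, where 32235 of 32285 identifiers matched.

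The test was edgeR 4.0.16 in R 4.3.3: genes kept by filterByExpr (minimum count 10), libraries scaled by TMM, a robust quasi-likelihood fit with group as its only term, and Benjamini-Hochberg adjustment over 15955 genes with thresholds of 0.05 and 0.1. TMM factors were 0.944 to 0.974 in the controls and 1.14, 0.997 and 0.994 in high-load 1 to 3. The biological coefficient of variation was 23.0%. Standard errors were derived from the F statistic. Sums and ratios were compared by exact two-sided permutation over kidneys (SciPy 1.17.1). DESeq2 1.42.0 and limma-voom (limma 3.58.1) were alternatives, besides other scalings, filters, covariates, lengths, a pseudocount of 0.5 counts for ratios, and leaving out each kidney.

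Pairs of kidneys within a group had a chi-square of 20.0 to 93.1 per degree of freedom over genes, so none was counted as a repeat. Each library is treated as a separate mouse. On counts simulated for this comparison (15955 genes, 50 changed at each fold), the share recovered was 10% for a change of 1.5-fold, 44% for 2-fold, 82% for 4-fold and 98% for 8-fold, and 14 of 131 calls were false. Genes were drawn independently in that simulation, without shifts shared by many genes of a kidney. The recovered shares can therefore be too high for the real data. Members and gene lists were chosen with earlier results of these data known. Named in full were the 12 collagens with the smallest p, all type I, III, IV and VI chains, and the 3 partners with the smallest p in each list, of which 1 is not reported here. No batch is named in the labels.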

Additional observations from a re-analysis of the deposited data

How the results depend on the processing

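Of 557 collagen fold changes under the alternatives, 545 kept their direction and 12 did not, in 5 genes, and 9 passed an adjusted p of 0.05. Without 1 kidney the log2 fold changes of Col6a1, Col6a2 and Col6a3 ran from -0.010 to 0.41, -0.073 to 0.49 and -0.23 to 0.55, negative only without high-load 2. Those of Col14a1 and Col16a1 ran from -0.49 to 0.35 and -0.40 to 0.15, and were 0.074 and 0.0083 with library totals. With mutation load as a number, Col14a1 was at 0.028. Against 3 genes of all called by edgeR, DESeq2 called 1698, limma-voom 0, the load as a number 10, no low-count filter 50, the replicate block 1, and leave-outs 0 to 807, the highest without high-load 2. DESeq2 called 8 collagens, and leave-outs 0 to 1. At an unadjusted p under 0.05, 10 to 14 collagens were higher in the leave-outs, 7 among the 24 members with no exon overlap, and 1 with the replicate block was lower beside 11 higher. Lower collagens numbered 3 with DESeq2, 2 with its size factors, 2 with the load as a number, 2 without robust estimation, and 0 to 3 in the leave-outs. With the DESeq2 size factors, 13.4% of all tested genes were higher and 10.9% lower at that level. For the other alternative fits in this paragraph such shares are not given, so their collagen counts have no background beside them.

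The median of type IV was 0.41 with library totals and 0.17 to 0.30 in the leave-outs, lowest without high-load 1. That of type VI was 0.29 with a filter of 1 CPM, which leaves fewer genes. Receptors were at 0.40 with library totals and 0.13 to 0.39 in the leave-outs, partners of basement membranes at 0.19 and -0.022 to 0.20, and processing genes at 0.21 to 0.64. Per podocyte marker the Col4a3 and Col4a4 difference was -0.22. The cause was not tested. Equal replicate numbers are only numbers: same-numbered kidneys correlated at 0.12, -0.18 and 0.05. With 3 kidneys a group, a fold of 1.5 is seldom called, and an exact test cannot go below 0.1.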
